A study of Mus musculus with 24 samples.

Results

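The C/EBP family of these cells was followed through 4 genes, Cebpa, Cebpb, Cebpd and Cebpg, taken by symbol from a table of 47480 genes. All 4 were counted in every library and all 4 were among the 14772 genes abundant enough to be tested. The cells were wild type mouse embryonic fibroblasts (MEFs), cultured connective tissue cells taken from embryos, and their RNA was sequenced in 24 libraries. There were 8 groups of 3 libraries, one for each combination of a control siRNA (siCTRL) or an siRNA against Cop1 (siCop1), the solvent DMSO or the compound KL001, and the absence or presence of Dexa. KL001 is a small molecule that stabilises the cryptochrome clock proteins, and Dexa is an abbreviation that the labels do not spell out. Cop1, listed in the table under its older symbol Rfwd2, is the substrate receptor of a ubiquitin ligase. The groups without Dexa were siCTRL DMSO, siCTRL KL001, siCop1 DMSO and siCop1 KL001, and each had a counterpart with Dexa. No source used here gives the doses, the treatment times or the origin of the replicates, and the p-values therefore measure the spread between these libraries, which may be technical. Every cell had received an siRNA, so no group stands for untransfected fibroblasts.

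C/EBP proteins are basic leucine zipper transcription factors that bind DNA as dimers with each other or with related zippers. C/EBP alpha drives terminal differentiation of fat cells, liver cells and granulocytes. C/EBP beta and C/EBP delta come on early when fibroblast-like cells are given glucocorticoid and cAMP to become fat cells, and they also serve the acute phase response. C/EBP gamma lacks an activation domain of its own and works through partners, ATF4 among them, on genes for amino acid supply. C/EBP alpha is a described substrate of Cop1, to which it is brought by Tribbles pseudokinases, and that step acts on the protein. Only RNA was counted here, and protein levels were not analysed.

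The libraries held between 21409988 and 27875023 counts, with 6.20% to 7.88% of them in the 10 most abundant genes. Levels are given as CPM, the counts of a gene per 1000000 counts of a library, on scaled library sizes. The siRNA lowered its target, with Rfwd2 at 28.4 ± 1.45 CPM (SD, n = 3) in siCTRL DMSO and 4.81 ± 0.172 CPM (SD, n = 3) in siCop1 DMSO, both without Dexa. All 9 fibroblast markers were abundant, with a summed level from 55000 to 58400 CPM in siCTRL DMSO without Dexa and from 41100 to 43200 CPM in siCop1 KL001 with Dexa, the lowest group. Markers of other cell types were lower. The summed hepatocyte list was at 0.337 to 1.27 CPM, the endothelium list at 0.931 to 3.64, the macrophage list at 2.59 to 15.6, the granulocyte list at 2.63 to 28.9, the squamous epithelium list at 6.54 to 80.1, the airway epithelium list at 7.61 to 78.2 and the adipocyte list at 15.9 to 81.2 CPM. Single genes held much of the last lists, with Cyp2f2 (airway) up to 64.5 CPM, Krt13 (squamous) up to 30.6 CPM and Fabp4 (adipocyte) up to 81.0 CPM. RNA of heart muscle stood out in single libraries. The summed level of 8 heart muscle markers was 60.6, 17.3 and 24.6 CPM in siCTRL DMSO without Dexa, 94.4 CPM in replicate 2 of siCTRL DMSO with Dexa, 85.2 CPM in replicate 2 of siCTRL KL001 without Dexa and 21.2 CPM in replicate 2 of siCTRL KL001 with Dexa. In the other 18 libraries it was at most 3.03 CPM, and all 12 siCop1 libraries were among them.

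The genes lie on 3 chromosomes of GRCm38. Cebpa (ENSMUSG00000034957.10) is at chr7:35119293-35121928 on the plus strand, and Cebpg (ENSMUSG00000056216.9) at chr7:35046422-35056573 on the minus strand, 62.7 kb away. Cebpb (ENSMUSG00000056501.3) is at chr2:167688915-167690418 and Cebpd (ENSMUSG00000071637.5) at chr16:15887286-15891031, both on the plus strand. Cebpa, Cebpb and Cebpd are each annotated as a single exon, while the longest transcript of Cebpg has 2 exons. Annotated exons of other genes run over the members on the opposite strand. An exon of Tmem189 covers 312 bases (20.7%) of Cebpb, and an exon of Spidr covers 562 bases (15%) of Cebpd. The library kit marks strand, but no source used here gives the strand setting of the counting, and reads from these shared stretches could have gone to either gene.

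Upstream sequences were matched in RefSeq's table (GRCm38.p6) for 3 of the 4 members, Cebpa, Cebpb and Cebpg. Those of Cebpb and Cebpg are shown because these genes answered Dexa in opposite directions. Each runs 5′ to 3′ on the gene's own strand and ends at the base before its annotated exon. Cebpb is chr2:167688665-167688914, plus strand, with capitals marking TGACG, the core of a cAMP response element, on either strand. Cebpg is chr7:35056574-35056816, minus strand, with capitals marking CCAAT on the opposite strand. Its stretch has 243 bases, because RefSeq places the start of Cebpg 7 bases inside the GENCODE exon and those 7 bases were left out.
Cebpb: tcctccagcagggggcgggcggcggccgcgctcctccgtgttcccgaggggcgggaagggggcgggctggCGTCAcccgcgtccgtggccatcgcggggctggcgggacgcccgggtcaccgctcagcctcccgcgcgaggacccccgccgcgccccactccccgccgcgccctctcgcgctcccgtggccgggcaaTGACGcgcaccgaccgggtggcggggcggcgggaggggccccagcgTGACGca
Cebpg: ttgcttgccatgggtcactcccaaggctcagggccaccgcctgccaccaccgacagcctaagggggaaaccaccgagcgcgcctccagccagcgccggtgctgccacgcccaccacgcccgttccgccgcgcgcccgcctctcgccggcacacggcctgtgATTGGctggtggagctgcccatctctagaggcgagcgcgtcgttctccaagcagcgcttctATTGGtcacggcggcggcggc
The Cebpb stretch holds TGACG or its reverse complement at 3 places, from 180 to 176, from 53 to 49 and from 7 to 3 bases before the annotated exon. Of 32851 RefSeq upstream stretches of 250 bases, 17.8% hold at least 1, and how many hold 3 was not counted. The full cAMP response element, TGACGTCA, is in 1.55% of all stretches and was not found in Cebpb. The Cebpg stretch holds 2 reversed CCAAT boxes, from 82 to 78 and from 21 to 17 bases before the annotated exon, and 33.8% of all stretches hold at least 1. How many hold 2 was not counted. On either strand, TGACG was not found in the Cebpg stretch, nor CCAAT in that of Cebpb. The 250 bases of Cebpb were 81.6% G and C, the 243 bases of Cebpg 70.4% and the 250 bases of Cebpa 66.4%, against a median of 52.4% over all stretches of 250 bases. AGAACA, the core recognised by the glucocorticoid receptor, was searched on both strands and is present in 16.1% of all stretches. It was not found in any of the 3. TTGCNNAA, a C/EBP recognition pattern present in 9.56% of stretches, was not found in them either. Such matches describe letters in a window and no binding was measured.

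Cebpd RNA was the member that moved most with Dexa. In siCTRL DMSO it was 9.13, 8.25 and 8.54 CPM without Dexa and 63.3, 55.1 and 55.8 CPM with it. All 3 treated libraries lay far above all 3 untreated ones, and the fitted change was 2.75 on the log2 scale (SE 0.102, adjusted p = 3.93e-16), a 6.71-fold rise. In siCTRL KL001 the libraries went from 8.27, 8.76 and 8.12 CPM to 48.0, 44.9 and 42.5 CPM, a log2 change of 2.43 (SE 0.106). In siCop1 DMSO they went from 7.94, 8.98 and 7.29 CPM to 42.1, 42.0 and 42.7 CPM, a log2 change of 2.39 (SE 0.106). In siCop1 KL001 they went from 8.89, 4.98 and 7.06 CPM to 38.6, 39.3 and 33.8 CPM, a log2 change of 2.42 (SE 0.111). Treated and untreated libraries did not overlap in any of the 4 settings, and the largest adjusted p was 2.49e-14. Spidr, whose exon lies over part of Cebpd on the other strand, also rose with Dexa in all 4 settings, by 0.27 to 0.35 on the log2 scale, and whether reads were shared between the genes was not tested.

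**Figure D1:**
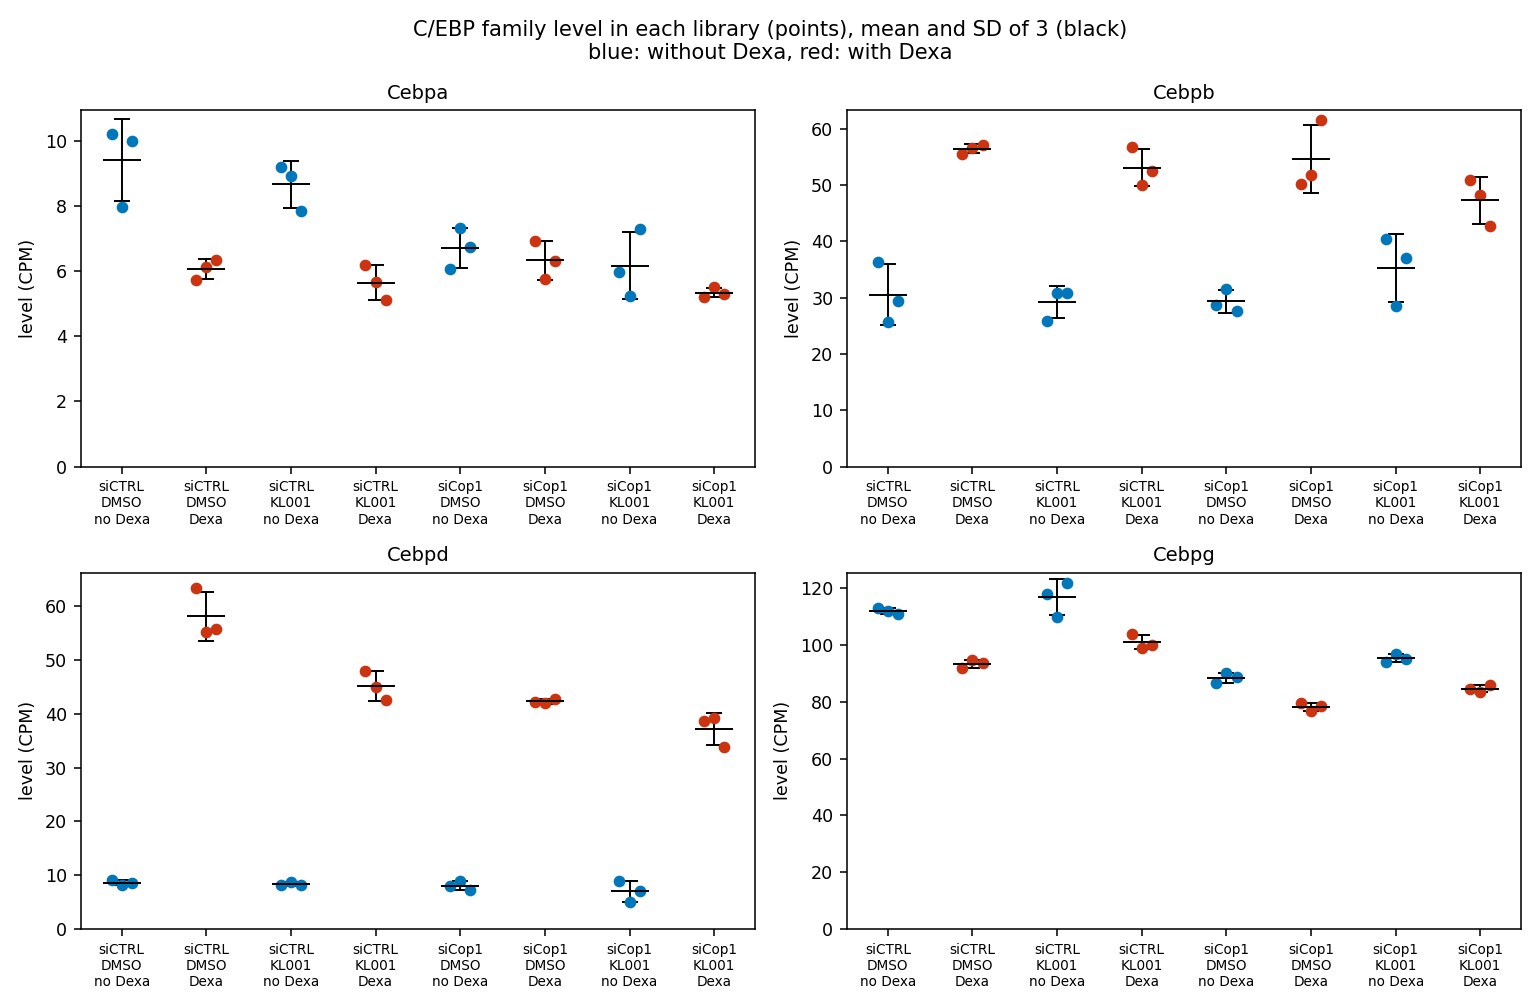
Level of Cebpa, Cebpb, Cebpd and Cebpg in CPM (vertical axis, from 0) in each of the 8 groups (horizontal axis). Points are libraries, blue without Dexa and red with it, and the black bar and whiskers are the mean and SD of 3; the Dexa libraries of Cebpd lie at 33.8 to 63.3 CPM, and its libraries without Dexa at 4.98 to 9.13 CPM.

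Cebpb, which encodes the other early-acting activator, also rose with Dexa in all 4 settings. It was 36.4, 25.7 and 29.4 CPM in siCTRL DMSO without Dexa and 55.6, 56.6 and 57.1 CPM with it. The treated libraries were close together and all above the untreated ones, with a log2 change of 0.88 (SE 0.124, adjusted p = 1.83e-05), or 1.84-fold. The change was 0.87 (SE 0.126) in siCTRL KL001 and 0.89 (SE 0.125) in siCop1 DMSO, each again without overlap of the libraries. In siCop1 KL001 the libraries were 40.4, 28.5 and 37.1 CPM without Dexa and 50.9, 48.3 and 42.8 CPM with it, a log2 change of 0.42 (SE 0.125, adjusted p = 0.0168). Replicate 2 of siCop1 KL001 without Dexa was low for both Cebpb and Cebpd. Without that library the Cebpb change was 0.29 with an adjusted p of 0.0881, and it also missed the threshold without replicate 1 (0.37, adjusted p = 0.0747) or replicate 2 (0.41, adjusted p = 0.0541) of siCop1 KL001 with Dexa. Tmem189, which shares bases with Cebpb, did not pass the test in any of the 4 Dexa comparisons, with log2 changes of 0.05 to 0.13.

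Cebpa, the differentiation factor of the family, fell with Dexa in siCTRL cells. In siCTRL DMSO it was 10.2, 7.96 and 10 CPM without Dexa and 5.72, 6.14 and 6.34 CPM with it. The groups did not overlap, and Cebpa fell by 0.64 on the log2 scale (SE 0.110, adjusted p = 3.19e-05). In siCTRL KL001 it went from 9.21, 8.92 and 7.85 CPM to 6.18, 5.66 and 5.10 CPM, a log2 change of -0.61 (SE 0.113, adjusted p = 7.48e-05). After siCop1 the libraries overlapped. Cebpa was 6.07, 7.31 and 6.73 CPM without Dexa and 6.92, 5.75 and 6.32 CPM with it in siCop1 DMSO, a change of -0.08 (95% interval -0.32 to 0.15, adjusted p = 0.675). In siCop1 KL001 it was 5.97, 5.25 and 7.28 CPM without Dexa and 5.22, 5.50 and 5.30 CPM with it, a change of -0.21 (95% interval -0.45 to 0.04, adjusted p = 0.237).

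Cebpg, the partner-dependent member, fell by a small and closely repeated amount. In siCTRL DMSO it was 113, 112 and 111 CPM without Dexa and 91.9, 94.6 and 93.7 CPM with it. The libraries of each group lay within a few CPM of each other and the groups did not overlap, with a log2 change of -0.26 (SE 0.0343, adjusted p = 3.98e-07). The change was -0.21 in siCTRL KL001, -0.18 in siCop1 DMSO and -0.17 in siCop1 KL001, with a largest adjusted p of 3.07e-04 and no overlap in any setting. Of all genes tested, 26.8% passed the test for Dexa in siCTRL DMSO, 26.8% in siCTRL KL001, 23.7% in siCop1 DMSO and 24.5% in siCop1 KL001. Against that, 4 of 4 members passed in each siCTRL setting, 2 higher and 2 lower, and 3 of 4 in each siCop1 setting. In RNA from whole cultures, fewer cells that express a gene and less RNA per cell cannot be told apart. The summed adipocyte list also moved with Dexa, from 15.9 to 19.9 CPM up to 53.6 to 58.4 CPM in siCTRL DMSO. Fabp4 carried it, the 6 others of its 7 genes were under 1 CPM in every library, and its part in the results was not tested. Heart muscle RNA was in all 3 siCTRL DMSO libraries without Dexa and in 1 of 3 with it, and there its part and that of Dexa cannot be told apart. In siCTRL KL001 it was in replicate 2 of both groups. The Dexa change there was -0.59 for Cebpa, 0.91 for Cebpb and 2.46 for Cebpd without that replicate of the group without Dexa, and -0.60, 0.92 and 2.44 without that of the group with Dexa.

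Cebpg RNA was lower after siCop1 than after siCTRL in all 4 settings. Without Dexa in DMSO it was 86.5, 90.1 and 88.9 CPM after siCop1, all below the 111 to 113 CPM of the siCTRL libraries, a log2 change of -0.34 (SE 0.0343, adjusted p = 4.83e-09). Given Dexa, the change was -0.25 (SE 0.0351) in DMSO and -0.25 (SE 0.0350) in KL001, and in KL001 alone it was -0.29 (SE 0.0340). The siCop1 and siCTRL libraries did not overlap in any of these settings, and the largest adjusted p was 1.39e-06.

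Cebpa was lower after siCop1 where Dexa was absent. In DMSO the siCop1 libraries, at 6.07 to 7.31 CPM, lay below the siCTRL libraries at 7.96 to 10.2 CPM, a log2 change of -0.49 (SE 0.107, adjusted p = 6.41e-04). In KL001 the siCop1 libraries, at 5.25 to 7.28 CPM, lay below the siCTRL libraries at 7.85 to 9.21 CPM, also a log2 change of -0.49 (SE 0.110, adjusted p = 8.82e-04). With Dexa the groups overlapped, and the change was 0.06 (95% interval -0.18 to 0.30) in DMSO and -0.08 (95% interval -0.33 to 0.17) in KL001. No call was lost when single libraries were left out, with changes from -0.59 to -0.43 in DMSO and from -0.63 to -0.38 in KL001.

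Cebpd passed the test for siCop1, as lower, only where Dexa was present. In DMSO it was 42.1, 42.0 and 42.7 CPM against 63.3, 55.1 and 55.8 CPM in siCTRL, a log2 change of -0.46 (SE 0.0822, adjusted p = 1.30e-04). In KL001 it was 38.6, 39.3 and 33.8 CPM against 48.0, 44.9 and 42.5 CPM, a change of -0.28 (SE 0.0859, adjusted p = 0.0171). The groups did not overlap in either case, though the second change missed the threshold without replicate 3 of siCop1 KL001 with Dexa (-0.21, adjusted p = 0.0945) or replicate 1 of siCTRL KL001 with Dexa (-0.23, adjusted p = 0.0863). Without Dexa the changes were -0.10 (95% interval -0.38 to 0.18) in DMSO and -0.27 (95% interval -0.55 to 0.02) in KL001, with overlapping libraries. In KL001 the changes without and with Dexa were thus alike in size. Spidr, on the strand opposite Cebpd, was also lower after siCop1 with Dexa, by -0.20 in DMSO and -0.16 in KL001, and whether reads were shared was not tested. The KL001 value of Cebpd without Dexa rested on single libraries, at -0.47 with an adjusted p of 0.00663 without replicate 1 of siCop1 KL001 and -0.07 without replicate 2.

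Cebpb did not pass the test for siCop1 in any setting, and its libraries overlapped in all of them. The changes were -0.06 (95% interval -0.34 to 0.22) in DMSO without Dexa, -0.05 (95% interval -0.29 to 0.20) in DMSO with Dexa and -0.16 (95% interval -0.42 to 0.09) in KL001 with Dexa. In KL001 without Dexa the change was 0.28 (95% interval 0.00 to 0.55, adjusted p = 0.118), and without the low replicate 2 of siCop1 KL001 it was 0.41 with an adjusted p of 0.0171. Of all genes tested, 29.4% passed for siCop1 in DMSO alone, 31.1% in DMSO plus Dexa, 32.7% in KL001 alone and 30.1% in KL001 plus Dexa. Of the 4 members, 2 passed in each of these comparisons, all lower.

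The heart muscle RNA described above lay on the siCTRL side of these comparisons. In siCTRL DMSO without Dexa all 3 libraries carried it, so there the siRNA and this RNA cannot be told apart. Elsewhere it lay in 1 library a group, and the calls held without that library. Without replicate 2 of siCTRL KL001 without Dexa the siCop1 change was -0.47 for Cebpa (adjusted p = 0.00348) and -0.33 for Cebpg (adjusted p = 2.22e-09). Without replicate 2 of siCTRL DMSO with Dexa it was -0.50 for Cebpd (adjusted p = 2.06e-04) and -0.25 for Cebpg (adjusted p = 1.41e-05). Without replicate 2 of siCTRL KL001 with Dexa it was -0.28 for Cebpd (adjusted p = 0.036) and -0.27 for Cebpg (adjusted p = 4.93e-06). Other marker lists also moved with siCop1, with Dexa and without it. With Dexa the granulocyte list was at 4.74 to 8.45 CPM in siCTRL and 22.8 to 25.9 CPM in siCop1 cells in DMSO, and at 2.63 to 16.8 and 19.0 to 28.9 CPM in KL001. It was carried by Ltf, while the 8 others of its 9 genes were under 1 CPM in every library. The macrophage list with Dexa was at 3.35 to 5.48 and 6.35 to 10.1 CPM in DMSO, and at 2.59 to 4.52 and 7.58 to 15.6 CPM in KL001. Of its 9 genes, 6 were under 1 CPM in every library. The others were Lyz2 (up to 11.3 CPM), Cd68 (up to 3.45 CPM) and Csf1r (up to 1.73 CPM). The airway epithelium list with Dexa was at 13.2 to 22.8 and 31.9 to 54.9 CPM in DMSO, and at 7.61 to 25.4 and 30.3 to 78.2 CPM in KL001. None of these ranges overlapped. The squamous list with Dexa overlapped, at 9.37 to 15 and 14.6 to 80.1 CPM in DMSO and at 7.90 to 18.4 and 13.1 to 29.8 CPM in KL001. Without Dexa in DMSO the ranges of the granulocyte list (5.16 to 12.6 and 8.64 to 20.1 CPM) and the airway list (13.4 to 24.2 and 16.3 to 35.0 CPM) overlapped. The fibroblast list there was at 55000 to 58400 in siCTRL and 48600 to 50100 CPM in siCop1 cells. The adipocyte list was at 15.9 to 19.9 and 20.7 to 22.4 CPM. The endothelium list was at 2.61 to 3.64 and 1.49 to 1.69 CPM. In KL001 without Dexa the fibroblast list was at 48100 to 52700 and 42300 to 43700 CPM. The adipocyte list was at 17.2 to 20.5 and 23.5 to 24.4 CPM there. These ranges did not overlap, while the macrophage list overlapped in both settings. The part of these lists in the results was not tested.

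**Figure D2:**
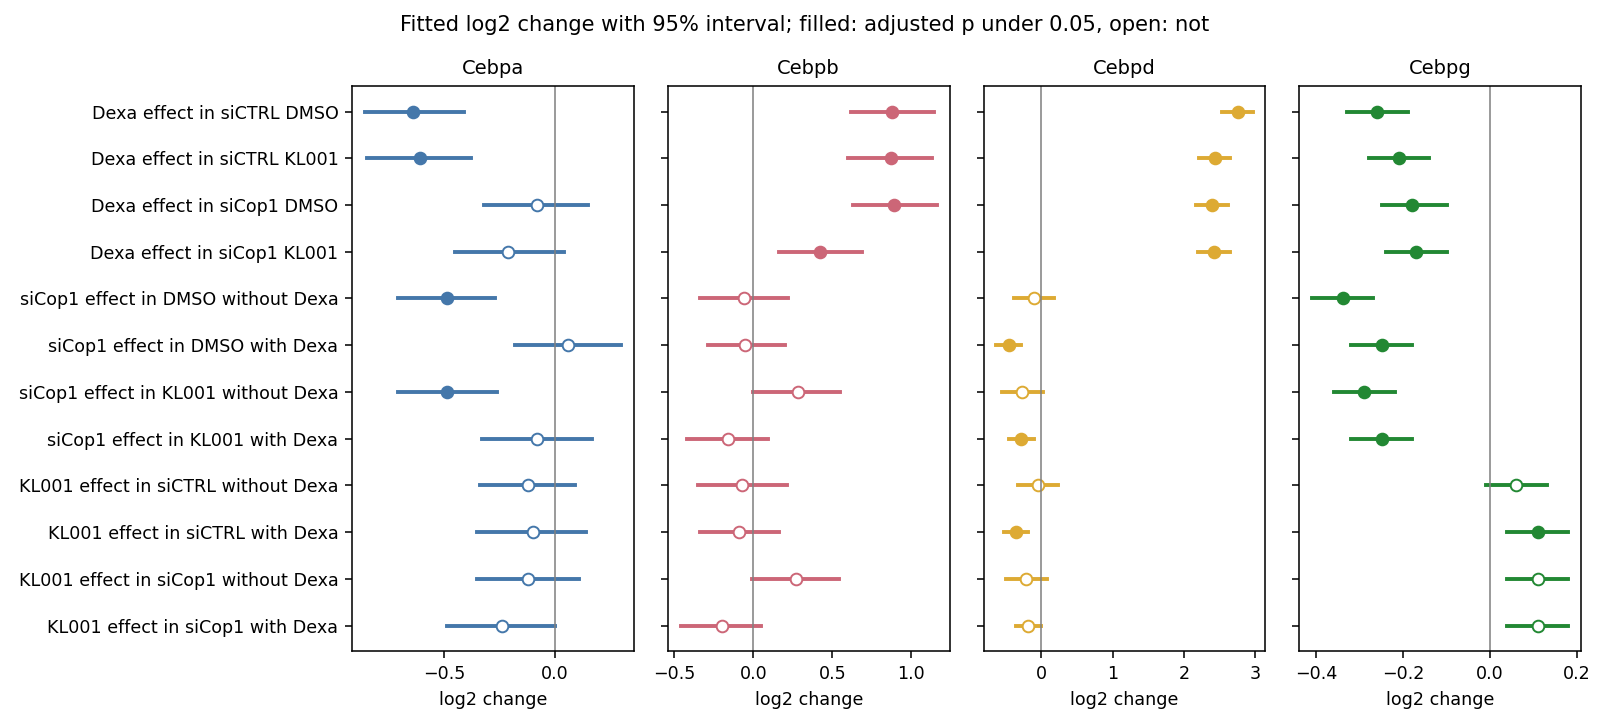
Fitted log2 change of each member (horizontal axis, scaled separately for each gene) in the 12 comparisons of paired conditions (vertical axis), with 95% intervals. Filled points passed the test; all 4 Dexa comparisons of Cebpb and Cebpd lie above 0 and all 8 Dexa and siCop1 comparisons of Cebpg lie below it.

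KL001 changed the members little. Cebpd was lower with KL001 in siCTRL cells given Dexa, at 48.0, 44.9 and 42.5 CPM against 63.3, 55.1 and 55.8 CPM in DMSO. The groups did not overlap, with a log2 change of -0.36 (SE 0.0821, adjusted p = 0.00507) that stayed past the threshold without any single library (-0.41 to -0.30, largest adjusted p 0.0395). After siCop1 with Dexa the Cebpd libraries also did not overlap, at 33.8 to 39.3 CPM against 42.0 to 42.7 CPM, but the change of -0.18 did not pass (95% interval -0.36 to 0.00, adjusted p = 0.297). Without Dexa it was -0.05 (95% interval -0.32 to 0.23) in siCTRL and -0.21 (95% interval -0.50 to 0.08) in siCop1 cells.

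Cebpg lay on the other side, slightly higher with KL001. The change in siCTRL cells given Dexa was 0.11 (SE 0.0346, adjusted p = 0.0345), with 104, 99.1 and 99.9 CPM against 91.9, 94.6 and 93.7 CPM. This call was lost whichever of the 6 libraries was left out, with adjusted p from 0.052 to 0.159. It was also lost in a fit of these 6 libraries with the replicate number as a block (0.11, adjusted p = 0.153), chosen after seeing the data. After siCop1 the change was also 0.11 both without Dexa (adjusted p = 0.0841) and with it (adjusted p = 0.0634), and neither passed. The libraries did not overlap there, but how many of all genes show the same was not counted. In siCTRL without Dexa it was 0.06 (adjusted p = 0.356) and the libraries overlapped.

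Cebpa and Cebpb did not pass the test for KL001 in any setting. The changes of Cebpa were between -0.24 and -0.10, and only in siCop1 with Dexa did its libraries not overlap, at 5.22 to 5.50 CPM with KL001 and 5.75 to 6.92 CPM in DMSO (-0.24, adjusted p = 0.313). Those of Cebpb were between -0.20 and 0.27. Of all genes tested, 6.73% passed for KL001 in siCTRL alone, 10.6% in siCTRL plus Dexa, 4.09% in siCop1 alone and 5.46% in siCop1 plus Dexa. Of the 4 members, 2 passed in siCTRL with Dexa, 1 higher and 1 lower, and 0 passed in the other 3 comparisons by edgeR's quasi-likelihood test and by DESeq2. Before adjustment, p was under 0.05 for Cebpg (0.0042) in siCop1 without Dexa and for Cebpd (0.0475) and Cebpg (0.00379) in siCop1 with Dexa. The summed fibroblast list was lower with KL001 in every setting, without overlap. In siCTRL with Dexa it was at 46900 to 49000 CPM, against 53300 to 54200 CPM in DMSO. Its part in the results was not tested. In siCTRL without Dexa, heart muscle RNA was in all 3 DMSO libraries and in 1 of 3 with KL001. There its part and that of KL001 cannot be told apart.

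The differences between these responses were tested as interaction terms, and 0 of 4 members passed in any of the 6 by edgeR's quasi-likelihood test or by DESeq2. The siCop1 by Dexa term of Cebpa was 0.55 in DMSO (95% interval 0.23 to 0.88, unadjusted p = 0.00156, adjusted p = 0.136) and 0.41 in KL001 (95% interval 0.07 to 0.74, unadjusted p = 0.0201, adjusted p = 0.495). So the Dexa fall of Cebpa seen in siCTRL cells was not shown to differ from the smaller values after siCop1, nor its siCop1 fall without Dexa from the values with Dexa, which are the same terms. The Dexa response of Cebpb in siCop1 KL001 differed by -0.44 (unadjusted p = 0.0232, adjusted p = 0.521) from that in siCTRL KL001, and by -0.47 (unadjusted p = 0.0166, adjusted p = 0.968) from that in siCop1 DMSO. For Cebpd the siCop1 by Dexa term in DMSO was -0.36 (unadjusted p = 0.0323, adjusted p = 0.58) and the KL001 by Dexa term in siCTRL was -0.32 (unadjusted p = 0.0558, adjusted p = 0.81). In KL001 its siCop1 by Dexa term was -0.01 (95% interval -0.35 to 0.33). Its KL001 by Dexa term in siCop1 was 0.03 (95% interval -0.31 to 0.37). Neither the siCop1 fall nor the KL001 fall of Cebpd was shown to depend on Dexa. For Cebpg all 6 terms were between 0.00 and 0.09.

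Few genes of any kind passed these tests. The share was 0.670% for siCop1 by Dexa in DMSO, 0.562% for siCop1 by Dexa in KL001, 0.0677% for KL001 by Dexa in siCop1 cells and 0.0677% for siCop1 by KL001 with Dexa. It was 0% for KL001 by Dexa in siCTRL cells, where 888 genes had an unadjusted p under 0.05 and DESeq2 called 3. It was also 0% for siCop1 by KL001 without Dexa, where 982 genes had an unadjusted p under 0.05 and DESeq2 called 15. Both counts are out of 14772 genes tested. With no change in any gene, a share of about 0.05 of them would have such a p.

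**Figure D3:**
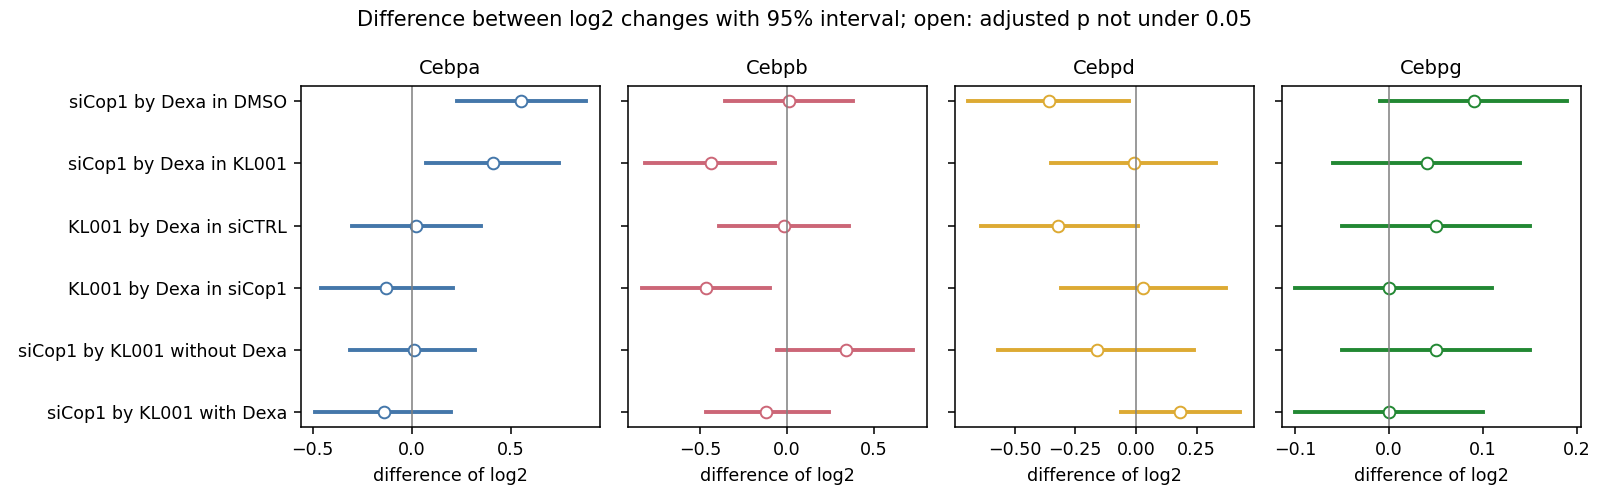
Difference between log2 changes (horizontal axis, scaled separately for each gene) for the 6 interaction terms (vertical axis) of each member, with 95% intervals. All points are open because none passed the test; the intervals of Cebpa for siCop1 by Dexa, 0.23 to 0.88 in DMSO and 0.07 to 0.74 in KL001, lie above 0.

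Ordered by mean level over the 8 groups, Cebpa fell into 2 tiers. The upper held siCTRL DMSO at 9.40 ± 1.26 CPM and siCTRL KL001 at 8.66 ± 0.714 CPM, both without Dexa (SD, n = 3). The lower ran from siCop1 DMSO without Dexa at 6.70 ± 0.617 CPM to siCop1 KL001 with Dexa at 5.34 ± 0.142 CPM (SD, n = 3), and neighbours within each tier overlapped. Cebpb also fell into 2 tiers, the 4 groups with Dexa from 47.3 ± 4.13 to 56.5 ± 0.762 CPM and the 4 without from 29.2 ± 2.81 to 35.3 ± 6.10 CPM, with overlap between neighbours inside each tier. Among the Dexa groups of Cebpd, siCTRL DMSO at 58.1 ± 4.55 CPM stood above siCTRL KL001 at 45.1 ± 2.75 CPM, which overlapped siCop1 DMSO at 42.3 ± 0.409 CPM, and siCop1 KL001 at 37.2 ± 3.02 CPM lay below those. The 4 groups of Cebpd without Dexa, from 8.64 ± 0.446 down to 6.98 ± 1.96 CPM, overlapped in order. Cebpg was graded, from 117 ± 6.23 CPM in siCTRL KL001 without Dexa to 78.3 ± 1.43 CPM in siCop1 DMSO with Dexa. Its siCTRL KL001 and siCTRL DMSO groups without Dexa overlapped, as did siCop1 KL001 without Dexa (95.4 ± 1.48 CPM) and siCTRL DMSO with Dexa (93.4 ± 1.38 CPM), and the other neighbours in the order did not. The spread between libraries beyond the noise of counting, as a fitted coefficient of variation, was 2.56% for Cebpg, 6.77% for Cebpa, 7.18% for Cebpd and 10.3% for Cebpb. The noise of counting comes on top of it.

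Levels of different genes were compared only per length, as CPM per kb of annotated exon. The exon lengths were 2.64 kb for Cebpa, 1.50 kb for Cebpb, 3.75 kb for Cebpd and 5.62 kb for Cebpg. In siCTRL DMSO without Dexa, Cebpb at 20.3 ± 3.61 and Cebpg at 19.9 ± 0.199 CPM per kb (SD, n = 3) differed by less than their spread, while Cebpa was at 3.57 ± 0.477 and Cebpd at 2.31 ± 0.119. With Dexa the levels were 37.5 ± 0.507 for Cebpb, 16.6 ± 0.245 for Cebpg, 15.5 ± 1.22 for Cebpd and 2.30 ± 0.119 for Cebpa. The 4 members together held 46.1 ± 4.22 CPM per kb without Dexa and 71.9 ± 0.446 with it. The share of Cebpd in that sum went from 5.02% to 21.5%, that of Cebpb from 43.8% to 52.2%, that of Cebpg from 43.5% to 23.1% and that of Cebpa from 7.74% to 3.20%. The sum with Dexa was 67.4 ± 3.34 in siCTRL KL001, 63.9 ± 4.15 in siCop1 DMSO and 58.5 ± 3.33 in siCop1 KL001. RefSeq gives Cebpd a shorter length of 2.26 kb. With it, chosen as an alternative after the data were seen, Cebpd was at 3.82 CPM per kb without Dexa, no longer below Cebpa, and at 25.7 with it, above Cebpg, a share of 31.3%. The other members kept their GENCODE lengths, so this order and share rest on unlike annotations.

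**Figure D4:**
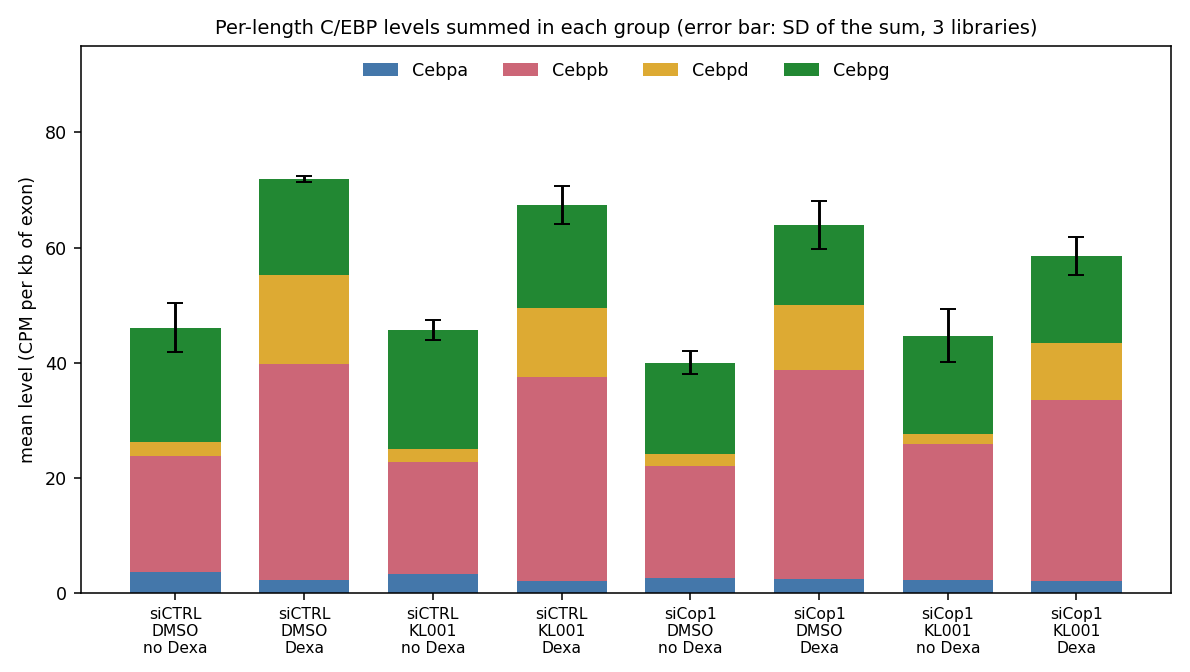
Mean level of the members per kb of annotated exon (vertical axis, CPM per kb), stacked in each of the 8 groups (horizontal axis), with the SD of the sum over 3 libraries as error bar. The Cebpd band grows from 2.31 to 15.5 CPM per kb with Dexa in siCTRL DMSO, and the sum from 46.1 to 71.9.

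Among the relatives of the family, Cebpe, the granulocyte member, had at most 1 count in any library and was not tested. Cebpz, a CCAAT-binding protein outside the zipper family, was at 72.0 ± 0.942 CPM in untreated siCTRL DMSO and 72.8 ± 4.54 CPM after Dexa (SD, n = 3), and passed in none of the 12 comparisons of conditions. Ddit3 encodes CHOP, a stress-induced C/EBP relative that pairs with the others. It was 113 ± 3.86 CPM in untreated siCTRL DMSO, 88.0 ± 3.54 CPM after Dexa and 80.0 ± 1.70 CPM after siCop1 (SD, n = 3). It fell in all 4 Dexa comparisons, by 0.28 to 0.44 on the log2 scale, and in all 4 siCop1 comparisons, by 0.36 to 0.55.

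The Tribbles genes, whose products bring C/EBP alpha to Cop1, all fell with Dexa in all 4 settings, Trib1 by 0.18 to 0.32, Trib2 by 0.19 to 0.45 and Trib3 by 0.33 to 0.39 on the log2 scale. After siCop1 and KL001 they moved in different directions. Trib3 fell after siCop1 from 187 ± 5.32 to 105 ± 2.03 CPM in DMSO without Dexa (SD, n = 3), a log2 change of -0.83 (SE 0.0367), and changed by -0.70 to -0.84 in all 4 settings. It was higher with KL001 in all 4, by 0.18 to 0.33. Trib2 fell with KL001 in all 4 (-0.35 to -0.14). Trib1 rose after siCop1 in 3 of 4 settings (0.22 to 0.30), and its change in KL001 with Dexa, 0.16, did not pass (adjusted p = 0.0754). Of 10 tested genes on the list of relatives, dimer partners and Cop1 adaptors, 0 rose and 7 fell with Dexa in siCTRL DMSO (median -0.19, all genes -0.01). After siCop1 in DMSO without Dexa 1 rose and 6 fell (median -0.25, all genes -0.01), and with KL001 in siCTRL without Dexa 2 rose and 1 fell (median 0.03, all genes 0.00). Over all genes tested, 12.7% rose and 14.1% fell with Dexa in siCTRL DMSO, 12.8% rose and 16.6% fell after siCop1 in DMSO without Dexa, and 3.22% rose and 3.51% fell with KL001 in siCTRL without Dexa. The knocked-down Rfwd2 is one of those that fell after siCop1.

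Receptors and factors described upstream of Cebpb and Cebpd were split under Dexa. Of 14 tested, 2 rose and 5 fell in siCTRL DMSO (median 0.06, all genes -0.01), against 12.7% and 14.1% of all genes. Il6ra, the interleukin 6 receptor, rose 3.49-fold (SE 0.0786 on the log2 scale) and Klf5, a factor of early fat cell formation, by 1.05 on the log2 scale (SE 0.114). Egr2 fell from 2.29 to 0.871 CPM (SE 0.218 on the log2 scale) and Lifr, the receptor for leukaemia inhibitory factor, fell by 0.87 (SE 0.0677). After siCop1 in DMSO without Dexa 3 rose and 1 fell, with Klf5 at 0.81 and Il6ra at 0.72, and Klf4 at -0.24. With KL001 in siCTRL without Dexa 0 of the 14 passed, against 6.73% of all genes.

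Acute phase and inflammatory genes described as C/EBP targets were also split by Dexa. Of 13 tested among 18 listed, 7 rose and 4 fell in siCTRL DMSO (median 0.57, all genes -0.01), against 12.7% and 14.1% of all genes. Serpina3n, an acute phase protease inhibitor, rose by 4.40 (SE 0.244) from 0.312 to 6.63 CPM, and Il1rn, the interleukin 1 receptor antagonist, by 3.36 (SE 0.0536) from 9.14 to 93.9 CPM. The neutrophil chemokines Cxcl5 (-0.98, SE 0.0583) and Cxcl1 (-0.96, SE 0.0743) fell. After siCop1 in DMSO without Dexa 6 rose and 1 fell (median 0.21), against 12.8% and 16.6% of all genes. The complement gene C3 was 2.19-fold higher, Cd14 was at 0.69 on the log2 scale, and Ptx3 at -0.92. With KL001 in siCTRL without Dexa 1 rose and 2 fell, against 3.22% and 3.51% of all genes. Serpina3n was at 1.31, C3 at -0.29 and Cxcl5 at -0.19.

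Genes of the fat cell programme were mostly absent or low. Of 21 listed, 14 were tested, and the fat cell products Adipoq, Plin1, Cidec, Cfd, Lep and Retn had at most 4 counts in any library. With Dexa in siCTRL DMSO 5 rose and 2 fell (median 0.02, all genes -0.01), against 12.7% and 14.1% of all genes. Klf15, a glucocorticoid-responsive factor, rose by 2.38 (SE 0.102) and the lipid carrier Fabp4 by 1.66 (SE 0.0649), while Zfp423 fell by 1.05 (SE 0.304) and the lipase Lpl by 0.85 (SE 0.168). After siCop1 in DMSO without Dexa 1 rose and 9 fell (median -0.43), against 12.8% and 16.6% of all genes. Fabp4 was at 0.27, Lpl at -0.94 and Klf15 at -0.88. With KL001 in siCTRL without Dexa 2 rose and 0 fell, against 3.22% and 3.51% of all genes. Pparg rose by 0.33 and Scd1 by 0.13. All 3 siCTRL DMSO libraries without Dexa, the reference in these comparisons and the same ones for the other lists, carried heart muscle RNA. There its part and that of the treatment cannot be told apart.

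Amino acid response genes, described as targets of ATF4 with C/EBP gamma, moved the same way as Cebpg and Atf4 under siCop1. Atf4 RNA changed by -0.32 in DMSO alone, -0.35 in DMSO plus Dexa, -0.33 in KL001 alone and -0.26 in KL001 plus Dexa. Each of these changes passed the test. All 18 genes on the list were tested. After siCop1 17 fell in DMSO alone (median -0.44, all genes -0.01), 18 in DMSO plus Dexa (median -0.48), 17 in KL001 alone (median -0.43) and 17 in KL001 plus Dexa (median -0.42), and 0 rose in any setting. Over all genes tested the shares that fell were 16.6%, 16.7%, 18.2% and 16.3% in the same order. The amino acid transporter Slc7a5 (-0.85, SE 0.0317) and the stress factor Atf3 (-0.65, SE 0.0621) fell most in DMSO without Dexa. With KL001 12 rose in siCTRL alone (median 0.16, all genes 0.00), 12 in siCTRL plus Dexa (median 0.16), 13 in siCop1 alone (median 0.18) and 17 in siCop1 plus Dexa (median 0.20), and 0 fell. Over all genes tested the shares that rose were 3.22%, 4.98%, 1.77% and 2.50%. Atf4 rose by 0.15, 0.11, 0.14 and 0.20 in the same order and passed each time, while Cebpg passed in 1 of these 4. Whether the list follows either gene was not tested. Cth, an enzyme of cysteine synthesis, rose by 0.34 (SE 0.0384) and the cystine transporter Slc7a11 by 0.30 (SE 0.0742) in siCTRL without Dexa. Under Dexa the list was mixed, with 3 higher and 4 lower in siCTRL DMSO (median -0.01), against 12.7% and 14.1% of all genes. Ddit4 at 0.49 and Mthfd2 at 0.17 were among the former, Atf3 at -0.38 and Slc7a11 at -0.37 among the latter. The siCop1 and KL001 comparisons share groups with each other, so these counts are not independent.

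**Figure D5:**
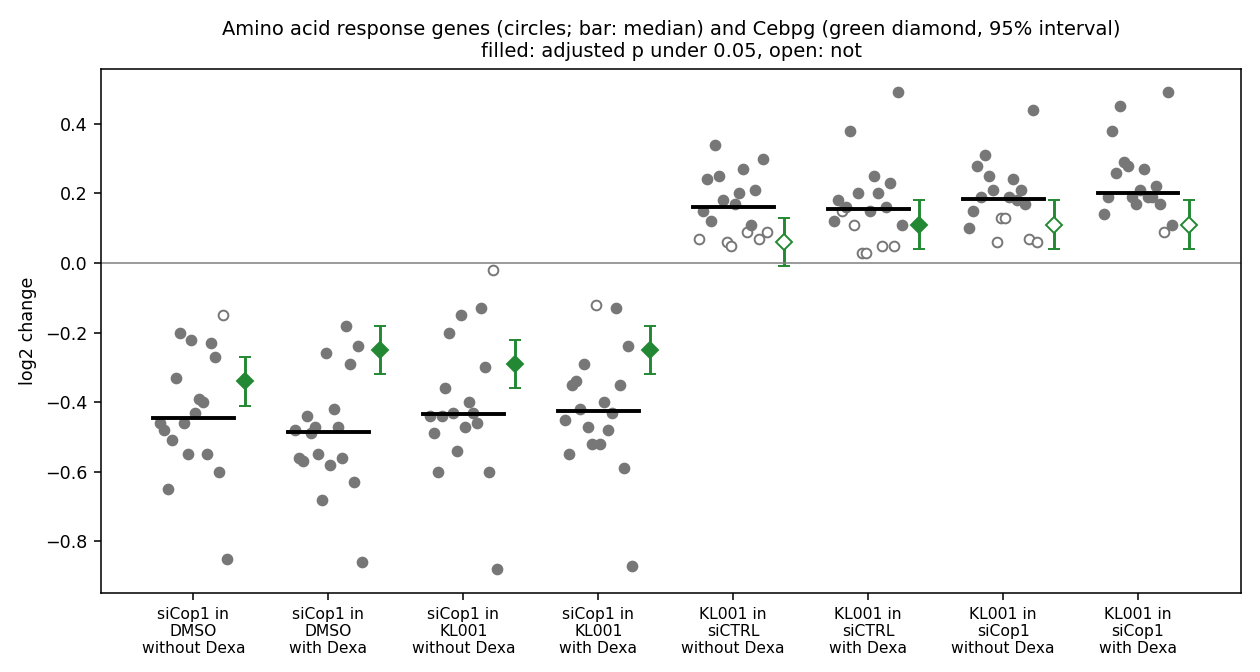
Log2 change (vertical axis) of the 18 amino acid response genes (grey circles, with their median as a bar) and of Cebpg (green diamond with 95% interval) in the siCop1 and KL001 comparisons (horizontal axis); filled symbols passed the test. The medians are -0.48 to -0.42 under siCop1 and 0.16 to 0.20 under KL001, and Cebpg is at -0.34 to -0.25 and 0.06 to 0.11.

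The genes whose levels were most like each member over the 24 libraries were sought among 11608 genes with a mean of at least 1 CPM, by Pearson's r of log2 CPM. The libraries share the same 8 treatments, so the values describe these samples only. Cebpd was most like Pcx, which encodes pyruvate carboxylase, Tsc22d3, which encodes the glucocorticoid-induced leucine zipper GILZ, and Nfkbia, which encodes an NF-kB inhibitor (r = 0.99 each). With Dexa in siCTRL DMSO these changed by 1.31, 2.73 and 0.88 on the log2 scale. Cebpb was most like Snai1, RP24-259P13.2 and Fdx1 (r = 0.94 each), of which Snai1, a repressor of epithelial genes, rose by 0.62 and the electron carrier gene Fdx1 by 0.75. Cebpa was most like Zfp467 and Marcks (r = 0.88 each) and Pald1 (r = 0.87), with Dexa changes of -0.35, -0.41 and -0.26. Cebpg was most like Tbc1d31, Stbd1 and Nfe2l1 (r = 0.97 each), which changed by -0.36, -0.83 and -0.19 after siCop1 in DMSO without Dexa. By Spearman's rho the 3 nearest genes were Dhrs3, Ccnd3 and Smarcd2 for Cebpd (0.94 each), Fdx1, Agpat4 and Cebpd for Cebpb (0.89 each), Zfp467 (0.87), Dcn (0.87) and Ncald (0.86) for Cebpa, and Timp3, Stbd1 and Kif21b for Cebpg (0.97 each).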

How the data were processed

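Messenger RNA of 24 MEF libraries was read as short single reads from a kit that marks strand, per the labels' protocols. Per the submitters' processing notes, the tools included bcl2fastq 1.8.4, STAR 2.4.5a, featureCounts of Subread 1.4.6-p3, Picard 1.126 and DESeq2, with GRCm38 (mm10) as the build. The authors deposited whole-number counts per gene, which were used for all tests. They also deposited a table of signal values, the counts divided by 1 factor per library (0.862 to 1.12), used here only to check the count table: 100% of values matched within 0.011.

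Counts were fitted with edgeR 4.0.16 (R 4.3.3, limma 3.58.1): TMM scaling, low genes removed by filterByExpr with a minimum count of 10 and a minimum total of 15, robust quasi-likelihood fit with 1 mean per group, two-sided tests of 12 comparisons of conditions and 6 interaction terms, Benjamini-Hochberg adjustment over 14772 genes and a threshold of 0.05. Each SE is the size of the log2 change over the root of F. CPM uses TMM-scaled totals; intervals cover 95%. No 2 libraries of a group agreed within sampling noise (chi-square per degree of freedom 1.57 to 8.54). The scripts were tested on simulated data. Overlap between libraries is a description of 3 against 3 values, and its share over all genes was not counted. At 21409988 to 27875023 counts a library, Cebpa had 114 to 283 counts.

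The members and gene lists were chosen with earlier results of these data known. Genes named are the members, the 3 most like each by Pearson's r (unnamed models left out), Cebpe, Cebpz, Ddit3, Trib1 to Trib3 and Rfwd2, and per list up to 2 called genes in each direction for 3 comparisons. Overlapping genes, untested fat cell genes, Ltf, Lyz2, Cd68, Csf1r, Cyp2f2, Krt13 and the genes nearest by Spearman's rho fall outside that rule. Alternatives were RLE scaling, no filter, DESeq2 1.42.0, a replicate block, only the groups compared, and each library left out. A RefSeq length of Cebpd and a replicate block within the groups of 2 comparisons were added after seeing the data. Same-numbered libraries correlated over 0.1 in all 3 pairs for Dexa in siCTRL KL001 and KL001 in siCTRL with Dexa. The added block was run for those 2 of 12 comparisons only, and the main fit used no block or pairing in any. Column labels share a prefix per replicate number within each siRNA, but no label says what a number stands for. Exon lengths are from GENCODE vM21, upstream sequences from RefSeq.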

Additional observations from a re-analysis of the deposited data

How the results depend on the processing

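Of the 72 values (4 members in 18 comparisons), DESeq2, RLE scaling and the replicate block changed no call and no direction of a called value. The replicate block moved 2 counts over all genes by over 1.5 times, KL001 by Dexa in siCop1 from 10 to 5 and siCop1 by KL001 with Dexa from 10 to 5. Of 36 correlations between libraries of the same replicate number, 11 were over 0.1 (range -0.29 to 0.46). All 3 of a comparison were over 0.1 in 2 of 12, Dexa in siCTRL KL001 and KL001 in siCTRL with Dexa. There a replicate block with only the groups compared, chosen after seeing the data, kept 7 of 8 member calls, lost Cebpg under KL001 in siCTRL with Dexa (0.11, adjusted p = 0.153) and gave 807 genes for that comparison (1560 with all groups and no block). Without the filter 60 of 72 were as before. The prior degrees of freedom of the fit then became infinite, and the dispersion used for Cebpb fell from 4.96 to 0.874. Newly past the threshold were, for siCop1, Cebpb in KL001 without Dexa (0.29) and with Dexa (-0.17) and Cebpd in KL001 without Dexa (-0.26), for KL001 in siCop1 cells, Cebpb without Dexa (0.27) and with Dexa (-0.20) and Cebpd with Dexa (-0.18), for siCop1 by Dexa, Cebpa (0.54) and Cebpd (-0.37) in DMSO and Cebpb in KL001 (-0.46), and Cebpb for KL001 by Dexa in siCop1 (-0.47) and for siCop1 by KL001 without Dexa (0.34). Cebpg under KL001 in siCTRL with Dexa (0.11, adjusted p = 0.109) was lost. With only the groups compared in the fit, Cebpb under Dexa in siCop1 KL001 (0.43, adjusted p = 0.115) and Cebpg under KL001 in siCTRL with Dexa (0.11, adjusted p = 0.0719) were lost, while KL001 in siCop1 cells passed for Cebpg without Dexa (0.11, adjusted p = 0.0428) and with Dexa (0.11, adjusted p = 0.0251) and for Cebpd with Dexa (-0.18, adjusted p = 0.0148). Leaving out single libraries changed 13 of 576 calls, with ranges of 0.29 to 0.53 for Cebpb under Dexa in siCop1 KL001, 0.17 to 0.41 for Cebpb and -0.47 to -0.07 for Cebpd under siCop1 in KL001 without Dexa, -0.32 to -0.21 for Cebpd under siCop1 in KL001 with Dexa, and 0.09 to 0.12 for Cebpg under KL001 in siCTRL with Dexa.

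Counts over all genes moved by over 1.5 times as follows. With only the groups compared, KL001 gave 225 in siCTRL alone, 950 in siCop1 alone and 1435 in siCop1 plus Dexa (994, 604 and 807 with all groups), siCop1 by Dexa in KL001 gave 52 (83) and KL001 by Dexa in siCop1 24 (10). Without the filter the interaction counts were 230 and 156 for siCop1 by Dexa in DMSO and KL001, 133 and 43 for KL001 by Dexa in siCTRL and siCop1, and 61 and 59 for siCop1 by KL001 without and with Dexa. DESeq2 gave 3 for KL001 by Dexa in siCTRL, and 15 and 24 for siCop1 by KL001 without and with Dexa. RLE scaling gave 5 for KL001 by Dexa in siCop1. Leaving out single libraries gave 653 to 1165 for KL001 in siCTRL without Dexa, 928 to 1416 in siCTRL with Dexa, 502 to 611 in siCop1 with Dexa, 43 to 94 for siCop1 by Dexa in KL001, 0 to 3 and 1 to 7 for KL001 by Dexa in siCTRL and siCop1, and 0 to 6 and 2 to 10 for siCop1 by KL001 without and with Dexa. The causes were not tested beyond these settings.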

Other observations

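Genes near the members were looked at after the values were seen, within 250 kb of each. Snai1, one of 3 genes with a Pearson's r of 0.94 to Cebpb and not among the 3 nearest by Spearman's rho, lies 146 kb from it on chromosome 2 and rose with Dexa by 0.62 on the log2 scale (SE 0.0503, adjusted p = 2.61e-11) in siCTRL DMSO. Of 13 tested neighbours of Cebpb, 2 rose and 3 fell in that comparison, against 26.8% of all genes called. Pepd, a peptidase gene 1.71 kb from Cebpg and 74.6 kb from Cebpa, was at -0.07 (adjusted p = 0.258) with Dexa in siCTRL DMSO, where Cebpg and Cebpa fell by 0.26 and 0.64.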
